A study of Mus musculus with 15 samples.

Results

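Among the long intergenic noncoding RNA (lincRNA) probes of a one-colour mouse brain array, 1 exon region carried a probe for a single strand. The members were chosen from the probe names, by taking every experimental probe named as a lincRNA exon and keeping the regions with a probe for 1 of the 2 strands. Of all 1729 lincRNA exon regions on the array, 1728 had a probe for both strands (3456 probes). The remaining region, number 10195, had the minus-strand probe MM9LINCRNAEXON10195-_P1. The whole array held 59709 distinct experimental probes. The choice used no measured value. All results here are thus those of 1 region and 1 probe.

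The arrays measured total RNA from brains of mice on a C57BL background. The wild-type (WT) group has 3 labelled samples and no age in the sample labels. The APP/PS1 mice, labelled as a mouse model and known as transgenic for mutant human amyloid precursor protein and presenilin 1, formed 4 groups of 3 labelled samples, at 1, 3, 6 and 9 months of age. The design text speaks of males and of WT mice matched to every age, whereas the sample labels name 1 male and 2 females in each group. With no age on the WT labels, a comparison against WT mixes age with genotype. The labels do not state the promoters of the transgenes. Scanner files of 14 arrays were used, 2 of WT and 3 of each APP/PS1 age. Replicates 2 and 3 at 1, 3 and 6 months were near-identical arrays (residuals over the copies of negative probes correlated at 0.749 to 0.914, and at 0.334 or less in any other pair). Each such pair entered as the mean of its arrays, which gave 11 samples. The labels do not say which mouse or extraction each array came from. The 3 arrays at 9 months were scanned at a setting no other group shared, so scan and group cannot be told apart there. Of 28 marker genes of brain cell types that were listed to check the tissue, 0 had a named probe, so the tissue label could not be checked against them. Probe names could be matched to 112 gene symbols in all, so this does not show that the array lacks probes for the markers.

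LincRNAs are long transcripts from genome stretches between protein-coding genes. Many were first mapped from chromatin marks of active promoters and transcribed bodies, a signal that does not show which strand is read. An array can therefore carry a probe for each strand of a mapped exon, and the strand whose probe lights up is then the likelier transcribed one. With a probe for one strand alone, a dark spot leaves the other strand unread. No sequence or genome position of the region was used here, and the nature of its transcript is not given in the labels.

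The minus-strand probe of region 10195 gave no signal well above background on any of the 14 arrays. In WT its processed signal, the value the scanner software gives for a spot, was 4.21 and 3.81 units. This is not the background-subtracted signal that the software also gives, which was -4.13 and -2.05 units on these 2 arrays. That signal is in turn not the spot minus its local background. The median pixel of the spot was 14 units above the local background on both WT arrays. At 1 month the processed signal was 3.27, 3.20 and 3.56 units, and at 3 months 3.83, 2.92 and 3.78. At 6 months it was 2.55, 2.66 and 3.07 units, and at 9 months 4.63, 3.74 and 4.62. All 14 values lay within 2.08 units of each other, which is less than the smallest scanner error of the spot on any array, 2.57 units. On 13 of the 14 arrays the signal was below its own error as given by the scanner software, at 0.992 to 0.997 times that error. The background-subtracted signal ran from -6.04 to 2.51 units on these same arrays. The processed signal there thus tracked its error, so setting it or its spread against that error says nothing of the probe. The exception was replicate 3 at 9 months, where the signal was 1.45 times its error. Only there did it equal the background-subtracted signal, at 4.62 units. No array had the spot flagged as non-uniform, outlying or saturated.

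**Figure D1:**
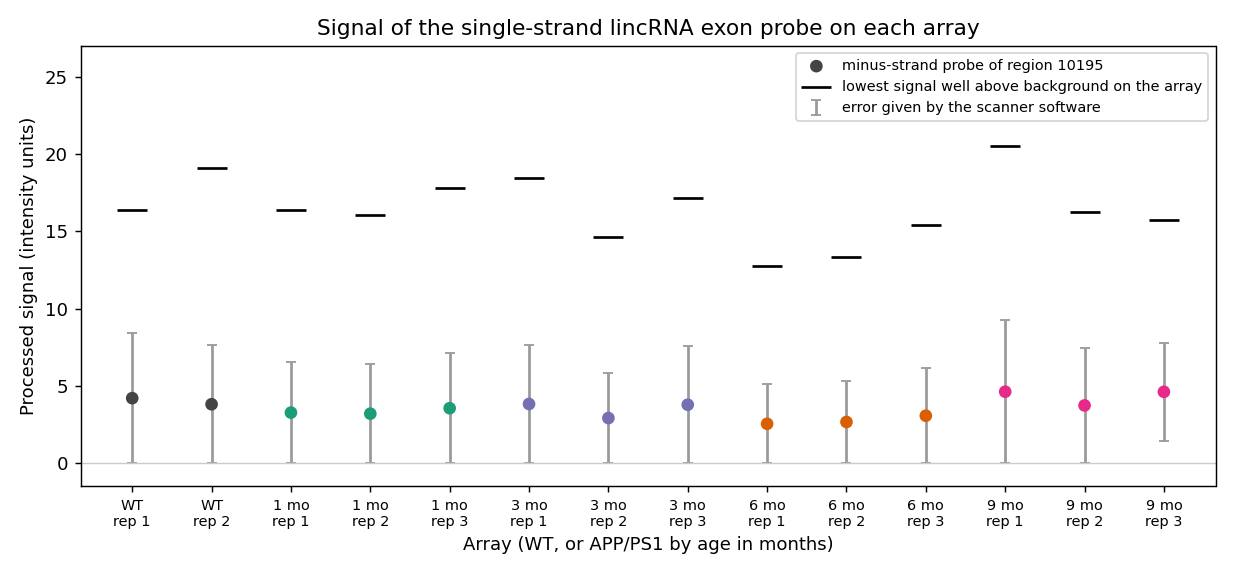
Processed signal (intensity units) of the minus-strand probe of region 10195 on each of the 14 arrays, with the error given by the scanner software as bars and the lowest signal called well above background on that array as a black dash. The probe lay between 2.55 and 4.63 units on every array, and the dashes between 12.8 and 20.5.

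These values do not give the probe a level. On 8 of the 14 arrays the value of the member was the lowest on the array and was shared exactly by 3783 to 9104 experimental spots, the member included, or 6.31% to 15.2% of all of them. On the other 6 arrays the value was held by this spot alone and lay above the array's lowest, for example at 4.21 against 3.24 units in WT replicate 1 and at 4.62 against 3.13 units in replicate 3 at 9 months. The deposited background-subtracted signal was below 0 on 12 arrays, on which the processed signal was nonetheless above 0. It ran from -6.04 units at 3 months (replicate 1) to 4.62 units at 9 months (replicate 3), and was also above 0, at 2.51 units, in replicate 1 at 6 months. Between 0.997% and 9.27% of experimental spots on an array had a lower background-subtracted signal. With no reading well above background in any of the 5 groups, these values give no order of the groups.

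The unsubtracted intensity placed the probe among the negative probes, which are designed to match no mouse transcript. The median pixel of the spot was 44 units on both WT arrays. It was 39, 41 and 45 units at 1 month and 43, 43 and 48.5 units at 3 months. It was 42, 46.5 and 47.5 units at 6 months and 49.5, 51 and 55 units at 9 months. The 9-month arrays were thus the brightest of the 14 in this raw measure. They were also scanned at a setting no other group shared, and the share of all spots with this order was not counted. The median of the 1200 negative-probe spots was likewise highest on the 9-month arrays, at 58.0 to 59.5 units, against 45.5 to 56.0 on the other arrays. The member lay below that negative median on all 14 arrays, by 1.5 to 9 units, and within the 5th to 95th percentile of the negative spots on all 14. Some negative spots are themselves called well above background, between 72 and 429 of the 1200 on an array, so they are not a uniformly dark reference. The local background around the spot was 26 to 31 units, and the median pixel of the spot exceeded it by 11 to 29 units. A background-subtracted signal below 0 therefore does not mean that the spot was dimmer than its surroundings.

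**Figure D2:**
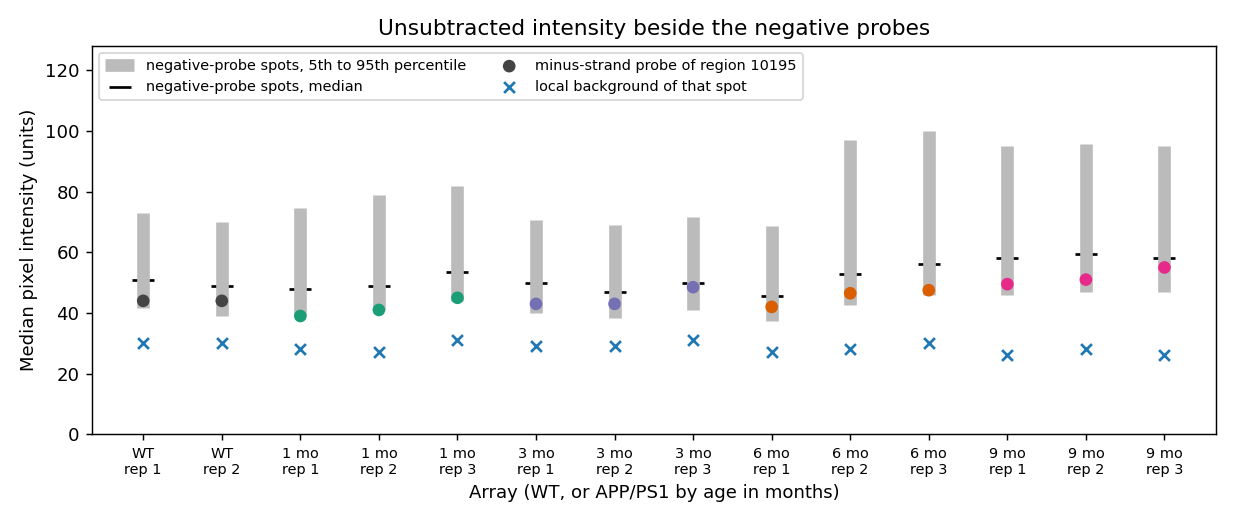
Unsubtracted median pixel intensity (units) of the minus-strand probe of region 10195 on each array (coloured points), with the local background of that spot (crosses) and the 1200 negative-probe spots (grey bars, 5th to 95th percentile, and black dash, median). The coloured points reach 49.5 to 55 units at 9 months and 39 to 48.5 elsewhere, and lie below the negative median on all 14 arrays.

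The detection limit of an array, taken from all its experimental spots, can be set beside the signal of this probe. The lowest signal called well above background was 2.38% to 4.80% of an array's 75th percentile. By sample, averaging near-identical arrays, that limit was 4.05% and 4.71% in WT. It was 3.46% and 3.47% at 1 month, 3.91% and 4.80% at 3 months, 2.54% and 2.87% at 6 months, and 3.02% to 4.20% at 9 months. The signal of the probe was below this limit on all 14 arrays. On the 8 arrays where it was the lowest value, this outcome was fixed in advance. Limit and lowest value are both read from the processed signal, so the limit is no independent yardstick. How strongly the probe responds to its transcript was not tested, so the limit sets no bound on the transcript level. Of the 13 experimental spots printed around the member, 5 were well above background on all 14 arrays, 2 on none, and 0 were flagged as non-uniform.

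A dark minus-strand probe was about as frequent among the lincRNA exon regions as a dark spot on the whole array. Of all 59994 experimental spots, 7259 (12.1%) were well above background on no array and 62.0% on all 14. Of the 1728 regions probed on both strands, the minus-strand probe of 223 (12.9%) was well above background on no array, and that of 962 (55.7%) on all 14. For their plus-strand probes these shares were 19.2% and 46.3%. Among those 223 regions the plus strand was well above background on all arrays in 86, on some arrays in 86, and on none in 51. With a minus-strand probe alone, region 10195 cannot be placed among these 3 classes. The regions nearest to it in number were looked at by detection alone, and were chosen after their values were seen. Both strands of 10193 and of 10196 were well above background on all 14 arrays. The minus strand of 10194 was so on all 14 and its plus strand on 4. The plus strand of 10197 was well above background on 0 arrays and its minus strand on 2, both at 6 months. Whether consecutive numbers mark exons of one transcript is not given in the labels.

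The share of members well above background was 0% in all 11 samples, against 58.8% to 74.6% of the both-strand probes. With 1 member that is dark in every sample, the tests of this share against the both-strand probes and between APP/PS1 and WT have a fixed outcome, so no p is given for either.

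In none of the 5 comparisons was the member tested, because a probe had to be well above background on every array of at least 2 samples to enter the fit. Of the 48358 probes that entered, limma called 8.51% at 1 month against WT, 10.1% at 3 months, 20.9% at 6 months and 31% at 9 months. It called 22.2% at 6 months against 1 month, at an adjusted p below 0.05. The member therefore contributed 0 of 0 calls, and no rise or fall of region 10195 with genotype or age was measured. The 4 ages share the same WT samples. No fold and no log2 difference is given as a result because the probe was not well above background in any group. No probe is named as alike in pattern, since a probe at the floor has no pattern to match.

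With no filter on dim probes, 1 of the 5 comparisons passed the threshold for the probe, 6 months against WT, where the readings at 6 months were lower (limma adjusted p = 0.0128). Over 19 further alternatives without a filter the limma adjusted p ran from 0.0019 to 0.258, and the call was lost in 5, among them those without WT replicate 1 and without the averaged replicate 2 at 6 months. That call compares readings that are not well above background and does not measure a change of region 10195. At 6 months the processed signal of the probe was the lowest value on all 3 arrays. In the same fit 17.1% of 59575 probes were called. On the scale of log2 signal minus the array's 75th percentile, the detection limit itself differed by -0.69 between these groups, from a mean of -4.52 in WT to -5.21 at 6 months. Over all 7259 probes that were well above background on no array, the median log2 difference at 6 months was -0.54. Of these, 1151 were called lower against 51 higher, 16.6% in all. The readings of the member differed by -0.88, and 10.9% of the 7259 probes were as low or lower. Why these readings were lower was not tested. In the other 4 unfiltered comparisons limma gave the probe an adjusted p of 0.134 at 1 month, 0.732 at 3 months and 0.312 at 9 months against WT, and 0.213 at 6 against 1 month. There 4.81%, 6.08%, 22.2% and 15.6% of the unfiltered probes were called.

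**Figure D3:**
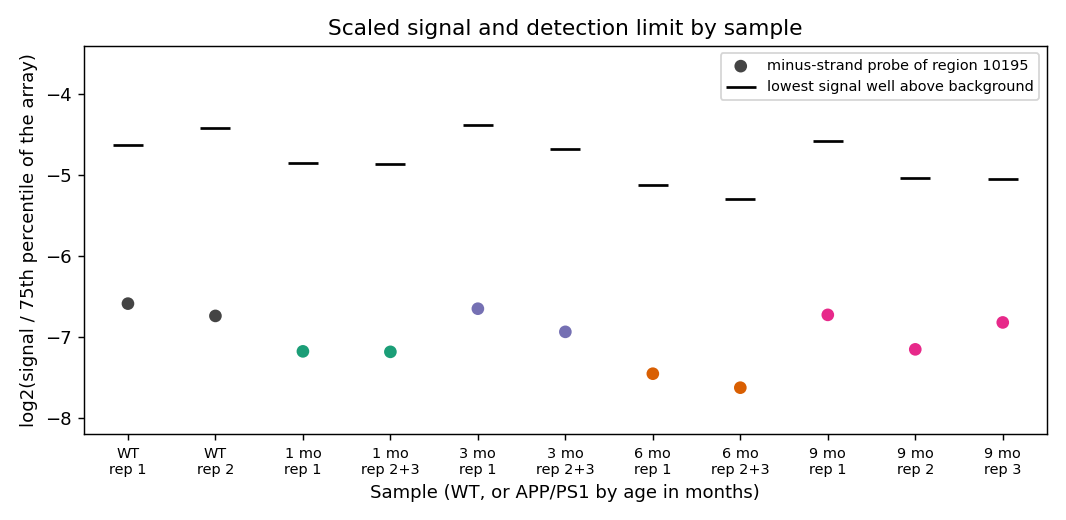
Scaled signal, log2 of the processed signal over the array's 75th percentile, of the minus-strand probe of region 10195 (coloured points) and of the lowest signal well above background (black dashes) in the 11 samples. Every point lies below the dash of its sample, which was fixed in advance where the probe held the array's lowest value. The mean of the dashes is -4.52 in WT and -5.21 at 6 months.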

How the data were processed

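Per the labels' protocols, brain RNA was extracted with Trizol and Cy3-labelled cRNA made from it for one-colour arrays. The submitters' processing notes name Agilent Feature Extraction 10.7.1.1. The intensity used here is the deposited processed signal, which is not scaled between arrays. It is not the background-subtracted signal, as it was above 0 for the member on the 12 arrays where that was below 0. On 8 arrays it was the array's lowest value, shared with other spots. The deposited flags (well above background, non-uniform, outlier) are other values of the authors' files. The third WT sample had no scanner file used here.

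Control and negative-probe spots were left out. The log2 processed signal was taken minus each array's 75th percentile (384 to 566 units), spots of a probe were averaged, and 134 single-spot probes flagged non-uniform were removed. Arrays of a group whose negative-probe residuals correlated above 0.5 were averaged. Probes well above background on every array of at least 2 samples were kept. One linear model with a mean for each of the 5 groups was fitted with limma 3.58.1 (R 4.3.3). P-values were adjusted by Benjamini-Hochberg over all probes kept. They set a difference of group means against the spread of samples within groups, pooled over all 5. Whether that spread is one between mice is not given in the labels. The code was tested on simulated data of the 48358 kept probes, at 6 months against WT. It recovered 50% of changes of log2 1 and 80% of log2 2, with 8 false calls. Probes as dim as the member were not part of it. From 68.1% to 82.4% of an array's experimental spots were well above background. Precision is limited by how few arrays there are.

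Named probes were to be the called members with the largest changes detected in both groups or in one, the brightest and steadiest members detected on all arrays, and those most like the largest riser; this rule named none. Region 10195 is the sole member, and the 4 regions nearest in number were named after their values were seen. The members and lists were chosen with earlier results of these data known. Alternatives covered background correction, scaling, the filter, the near-identical arrays, the scan setting and left-out samples.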

Additional observations from a re-analysis of the deposited data

How the results depend on the processing

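Under all 21 alternatives that kept a filter (19 at 9 months) the member was not tested and the count of members called was 0, so a change of the member has no value under these and their 0 says nothing of stability. With no filter the count became 1 at 6 months against WT, a call between readings not well above background. No filter together with the other choices was added after the data were seen. There the count was also 1 in 14 of 19 alternatives. They were the percentile over detected probes, separate arrays, the arrays at the shared scan setting alone, scan setting as a block without 9-month arrays, and without 9-month arrays. They also held 9 of the 11 that left out 1 sample, and over those 11 the count was 0 to 1. In the 5 others the log2 difference of the readings was -0.77 with normexp (limma adjusted p = 0.056), -0.47 with quantile normalization (0.258), -0.88 with the 2 groups alone (0.0729), -0.80 without WT replicate 1 (0.0716) and -0.79 without the averaged replicate 2 at 6 months (0.0647), against -0.88 with no other change. In the other 4 comparisons the count was 0 throughout. The unfiltered difference at 3 months turned to 0.013 without the averaged replicate 2 at 3 months, and that of 6 against 1 month to 0.068 with normexp. The cause was not tested, and none of these differences is a level of the transcript. Normexp used the median spot intensity in place of the mean. No paired analysis was possible because every title carries the same replicate number, and the numbers used here follow accession order and pair no samples. Signal below the detection limit of an array has no measured level.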
